A study of Homo sapiens with 8 samples.

Results

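The respiratory chain members described here are 72 genes: 13 protein-coding genes of the mitochondrial genome and 59 nuclear genes for subunits of complexes I to IV. They were chosen by gene name alone, among the 31461 genes listed in the table, as the MT-ND, MT-CO, MT-ATP and MT-CYB genes and the NDUF, SDH, UQCR and COX subunit symbols of the common isoforms. By complex, the nuclear members were 37 genes of complex I, 4 of complex II, 8 of complex III and 10 of complex IV. The mitochondrial members were 7 genes of complex I, 1 of complex III, 3 of complex IV and 2 of the ATP synthase (complex V). Complexes were assigned by symbol, so NDUFA4, which is known to belong to complex IV, is counted with complex I. All 72 were listed for both cell lines and all 72 passed the filter on low values.

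Transcript levels came from 8 RNA-seq libraries of 2 human lung cancer lines, A549 and H1299, both labelled wild type. The cells had received either a control microRNA or miR-29a-3p by transfection, and each of the 4 combinations of line and transfection held 2 libraries. The stated aim was to look for genes that miR-29a-3p might target. Each line is a single established cell line, and no dose or duration of transfection is stated. Values are FPKM (fragments per kilobase of transcript, scaled by the mapped fragments of the library), so each level is scaled by transcript length.

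The respiratory chain is the series of protein complexes in the inner mitochondrial membrane that passes electrons from NADH and succinate to oxygen and pumps protons, which the ATP synthase then uses to make ATP. Complexes I, III and IV and the ATP synthase are built from subunits of both genomes, while complex II is entirely nuclear. The mitochondrial genome is transcribed as long RNAs from both strands that are cut into shorter ones. Nearly all of its messages, MT-ND6 being the exception, come from 1 strand. Nuclear subunits are transcribed gene by gene, and binding sites for NRF1, the ETS factor GABP and YY1 are known from many of their promoters.

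Depth was estimated at 12221310 to 15614821 fragments a library, with 12021 to 12837 genes at 1 FPKM or more. The mitochondrial members rested on 620 to 272358 estimated fragments per library and gene (median 20721), and the nuclear members on 19 to 4809 (median 182.5, a counting error of 7.40%), with 28 of the nuclear members under 100 fragments in at least 1 library. Libraries of a group differed at the median by 0.04 to 0.08 on the log2 scale over the mitochondrial members and by 0.06 to 0.11 over the nuclear members. Line markers went against the labels: CDKN2A, which is deleted in A549, stood at 23.8 and 24.8 FPKM in the controls labelled A549 and at 0.0513 and 0.112 in those labelled H1299, and ALDH1A1, abundant in A549, at 57.7 and 60.8 and 809 and 785. Lines are therefore named below by their labels only. Of the 16 listed markers of fibroblasts, leukocytes and endothelium at most 3 reached 1 FPKM in any group. The 6 leukocyte markers summed to 18.6 to 22.8 FPKM in the A549-labelled libraries, 8.63 to 8.64 in the H1299-labelled controls and 24.5 to 25.9 in the H1299-labelled treated libraries, nearly all of it CD68, while PTPRC, which all leukocytes carry, was at 0 or under 0.01. The 5 fibroblast markers summed to 2.21 to 2.31 and 3.43 to 3.50 in the H1299-labelled controls and treated libraries, and the 5 endothelial markers to at most 0.41 in any library.

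Messages of the mitochondrial genome were far more abundant than those of the nuclear members. The order of the mitochondrial members by FPKM was similar in the 4 groups. In the A549-labelled controls, MT-CO2, the complex IV subunit that takes electrons from cytochrome c, stood highest at 5289 and 5671 FPKM, followed by MT-CO1, the catalytic subunit of complex IV, at 4436 and 4585. In the H1299-labelled controls the order of this pair was turned, with MT-CO1 at 8165 and 8158 and MT-CO2 at 6199 and 5975. MT-ND4L, MT-CO3, MT-ND4 and MT-ATP8 took ranks 3 to 6 in each of the 4 groups, MT-ATP6 rank 12 and MT-ND6 rank 13. MT-ND6 lay lowest by a wide margin, at 203 and 219.8 in the A549-labelled controls and 115 and 96.7 in the H1299-labelled controls. Neighbours in this order overlapped between libraries in 5 places: MT-ATP8 with MT-ND1 and MT-ND1 with MT-CYB in the A549-labelled treated group, MT-ND3 with MT-ND5 in the H1299-labelled controls, and MT-CYB with MT-ND2 and MT-ND5 with MT-ND3 in the H1299-labelled treated group. Among the nuclear members COX8A, a small complex IV subunit, was highest in each group, at 593 and 589 FPKM in the A549-labelled and 379 and 355 in the H1299-labelled controls, and NDUFA5, an accessory subunit of complex I, was lowest, at group means of 2.82 and 1.75. The median nuclear member stood at 17.4 and 13 FPKM in these controls, against 1463 and 2288 for the median mitochondrial member.

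**Figure D1:**
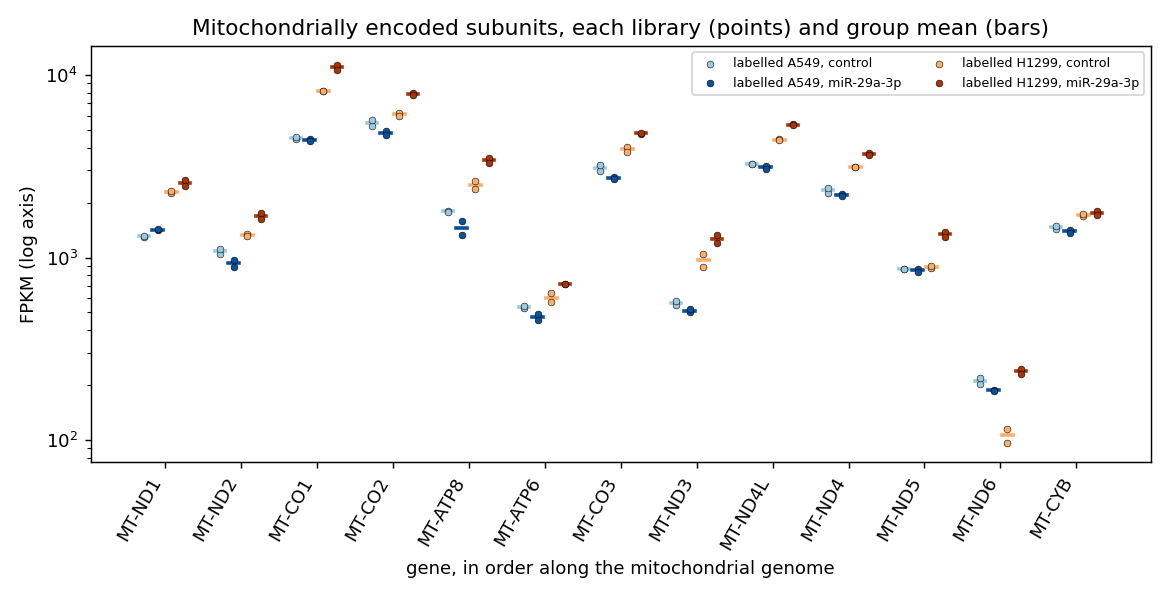
FPKM on a log axis (y) of the 13 mitochondrially encoded members (x, in order along the mitochondrial genome) in each of the 8 libraries (points) with group means (bars). MT-CO1 and MT-CO2 stand highest and MT-ND6 lowest in all 4 groups, and the H1299-labelled treated libraries lie above the H1299-labelled controls for 12 of the 13 genes.

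Some of these genes share bases or have near-identical copies, which limits what an FPKM value of 1 of them can show. MT-ATP8 (chrM:8366-8572) and MT-ATP6 (chrM:8527-9207), both in the membrane part of the ATP synthase, overlap by 46 bases on the same strand, MT-ATP6 and MT-CO3 by 1, and MT-ND4L (chrM:10470-10766) and MT-ND4 (chrM:10760-12137) by 7. They are given 5′ to 3′ from GRCh38 because fragments from these stretches lie in both genes of a pair. MT-ATP8 is given whole with the 46 bases of MT-ATP6 in capitals. MT-ND4L is given by its last 100 bases with those of MT-ND4 in capitals.

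MT-ATP8: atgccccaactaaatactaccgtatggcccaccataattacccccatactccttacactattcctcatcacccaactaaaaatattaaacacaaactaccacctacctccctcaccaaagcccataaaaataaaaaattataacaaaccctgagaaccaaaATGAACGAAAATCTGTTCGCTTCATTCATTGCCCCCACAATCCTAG
MT-ND4L: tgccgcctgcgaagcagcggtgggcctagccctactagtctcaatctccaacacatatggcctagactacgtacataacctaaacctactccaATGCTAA

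MT-ND6 (chrM:14149-14673) is the 1 member on the other strand, and as no strand setting of the counting is stated, RNA of either strand at that place cannot be told apart. A block of mitochondrial sequence copied into chromosome 1 holds a pseudogene named MTATP6P1 (chr1:633696-634376), 98.5% identical to MT-ATP6 over 681 bases. MTATP6P1 was listed at group means of 24.1 FPKM in the A549-labelled and 435 in the H1299-labelled controls, beside 535 and 603 for MT-ATP6. MTND2P28 (chr1:629640-630683), 98.4% identical to MT-ND2 over 1042 bases, was listed at 8.02 and 166, beside 1081 and 1324 for MT-ND2. How the counting shared fragments between such copies is not given, so the line differences of MT-ATP6 and MT-ND2 are uncertain. Among nuclear members, SDHDP6 (98.3% identical over 480 bases) stood above SDHD itself, at 55.1 against 13.6 FPKM in the A549-labelled controls, and COX6A1, UQCRFS1 and NDUFV2 had pseudogenes 98.1% to 98.9% identical at 61.04, 69.97 and 12.7 FPKM in these controls, beside 93.9, 96.8 and 16.7 for themselves. NDUFA5P11, 97.6% identical to NDUFA5 over 331 bases, was listed at 7.53 FPKM in the A549-labelled and 7.33 in the H1299-labelled controls. Those values lie above the 2.82 and 1.75 of NDUFA5 itself, so its place as the lowest nuclear member is uncertain. In all, 9 members (7 nuclear) had same-named pseudogenes at 10% or more of their own FPKM in a library.

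Summed over the members, the balance between the genomes differed mainly between the lines. The 13 mitochondrial members summed to 25934 and 27036 FPKM in the A549-labelled controls and 36573 and 35633 in the H1299-labelled controls, while the 59 nuclear members summed to 2643 and 2635 and to 1816 and 1676. The mitochondrial sum was thus 36.3% higher and the nuclear sum 33.8% lower in the H1299-labelled controls, and their ratio was 10.04 ± 0.32 (SD, n = 2) in the A549-labelled and 20.7 ± 0.80 (SD, n = 2) in the H1299-labelled controls. After miR-29a-3p the ratio was 9.25 ± 0.063 (SD, n = 2) in the A549-labelled libraries, where the mitochondrial sum dropped by 7.49% and the nuclear sum differed by 0.42%. In the H1299-labelled libraries it was 22.6 ± 0.55 (SD, n = 2), where the mitochondrial sum was 26.6% and the nuclear sum 15.9% higher than in the controls. In both lines the treated and control ratios did not overlap, with library values of 9.81 and 10.3 against 9.29 and 9.2 and of 20.1 and 21.3 against 23 and 22.2. With 2 libraries against 2, an exact permutation test cannot go below p = 0.33. In bulk RNA, less RNA per cell and fewer cells with the RNA cannot be told apart. Sums are led by the most abundant genes. The ratio of the median mitochondrial to the median nuclear member was 85.6 and 81.3 in the A549-labelled groups and 185 and 187 in the H1299-labelled groups, so it also stood higher in every H1299-labelled library, while its treated and control values overlapped there.

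**Figure D2:**
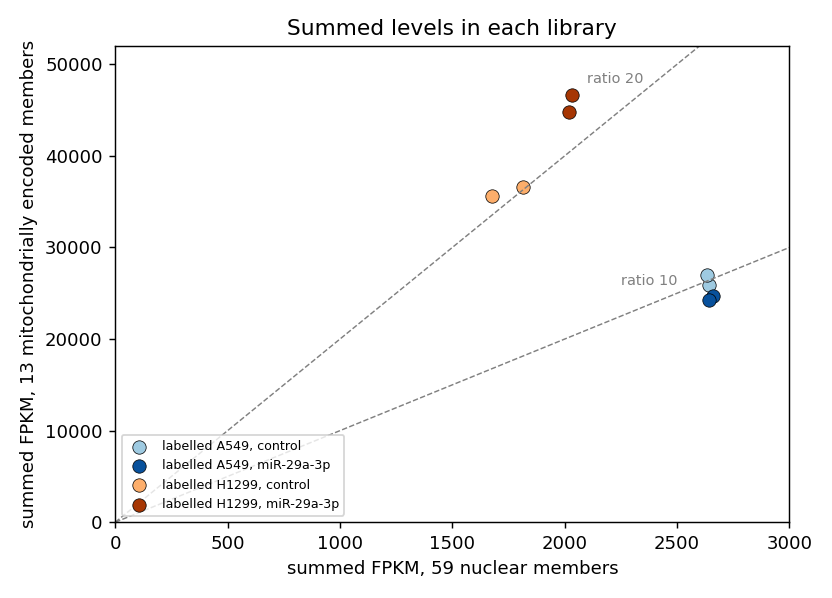
Summed FPKM of the 13 mitochondrially encoded members (y) against that of the 59 nuclear members (x), 1 point per library, with dashed lines for ratios of 10 and 20. The A549-labelled libraries lie near the lower line, and the H1299-labelled libraries near and above the upper line, with the treated pair higher on both axes than its controls.

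In the libraries labelled H1299, miR-29a-3p was followed by higher levels of 12 of the 13 mitochondrial members, with none lower, and of 21 of the 59 nuclear members, with 7 others lower. Called means a limma adjusted p under 0.05 over all 14635 genes tested. In this comparison 50.0% of all genes tested were called, 25.1% higher and 24.8% lower, so the nuclear members were called about as often as genes at large. Both treated libraries lay above both controls for 12 mitochondrial and 35 nuclear members, beside 38.5% of all genes tested, and below for 0 and 10, beside 37.4%. The median log2 fold change was 0.35 over the mitochondrial members and 0.21 over the nuclear members, beside 0.00 over all genes tested. Fold changes here and below are of log2(FPKM + 1), so those of low genes are understated. With each library rescaled to TPM, 16 nuclear members were higher and 9 lower, so the share of rises among the nuclear calls depends on the scaling. Without H1299-labelled control 2, 18 nuclear members were called in place of 28. The 10 listed A549 markers moved with this response: they summed to 1322 to 1372 FPKM in the H1299-labelled controls and 2783 to 2869.7 in the treated libraries, beside 239 to 253 in the A549-labelled libraries. Of the 10, 6 were called higher and none lower, with ALDH1A1 going from 809 and 785 FPKM to 1471 and 1412 and ALDH3A1 from 37.1 and 38.9 to 599.9 and 588. Their part in the rise of the members was not tested.

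MT-ND6, a membrane-arm subunit of complex I, showed the largest rise of the mitochondrial members. It stood at 115 and 96.7 FPKM in the controls and 245 and 231 in the treated libraries, a log2 fold change of 1.16 ± 0.087 (SE) and an adjusted p of 0.00012. Both treated values lay above any control value of either line. MT-ND5, a proton-pumping subunit of the same arm, went from 873 and 898 FPKM to 1376 and 1302, a log2 fold change of 0.60 ± 0.042 (SE) and an adjusted p of 9.9e-05. MT-ND2 and MT-ND4, the other proton pumps of this arm, stood at 1344 and 1304 and 3149 and 3135 FPKM in the controls and at 1744 and 1632 and 3754 and 3665 in the treated libraries, log2 fold changes of 0.35 and 0.24. The small core subunits MT-ND3 and MT-ND4L rose by 0.39 and 0.28, and MT-ND1, next to the quinone site, had the smallest rise of complex I, 0.17 (adjusted p = 0.019), from 2264 and 2312 FPKM to 2664 and 2476. Of complex IV, MT-CO1 went from 8165 and 8158 FPKM to 11377 and 10623, a log2 fold change of 0.43 ± 0.044 (SE) and an adjusted p of 0.0004, and MT-CO2 and MT-CO3 rose by 0.37 and 0.29. The ATP synthase subunits MT-ATP8 and MT-ATP6 rose by 0.45 and 0.25. MT-CYB, the only complex III subunit of the mitochondrial genome, was the exception: its controls stood at 1698 and 1726 FPKM and its treated libraries at 1797 and 1711, which overlap, a log2 fold change of 0.03 ± 0.043 (SE) and an adjusted p of 0.54. Messages that lie next to MT-CYB on the genome, MT-ND5 and MT-ND6, thus differed most and MT-CYB least. Single libraries ended 3 of the 12 calls. Without treated library 1 the adjusted p was 0.065 for MT-ND3, 0.10 for MT-ND1 and 0.072 for MT-ATP6. MT-ND1 was also lost without control library 1 (0.070), and MT-ATP6 without control library 2 (0.076) or treated library 2 (0.081). By setting, the call was lost for MT-ND1 under 5 alternatives (adjusted p = 0.0507 to 0.21); MT-ATP6 without the filter on low values (0.061) or with TPM scaling (0.057); and MT-ND4 without the filter on low values (0.0533).

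**Figure D3:**
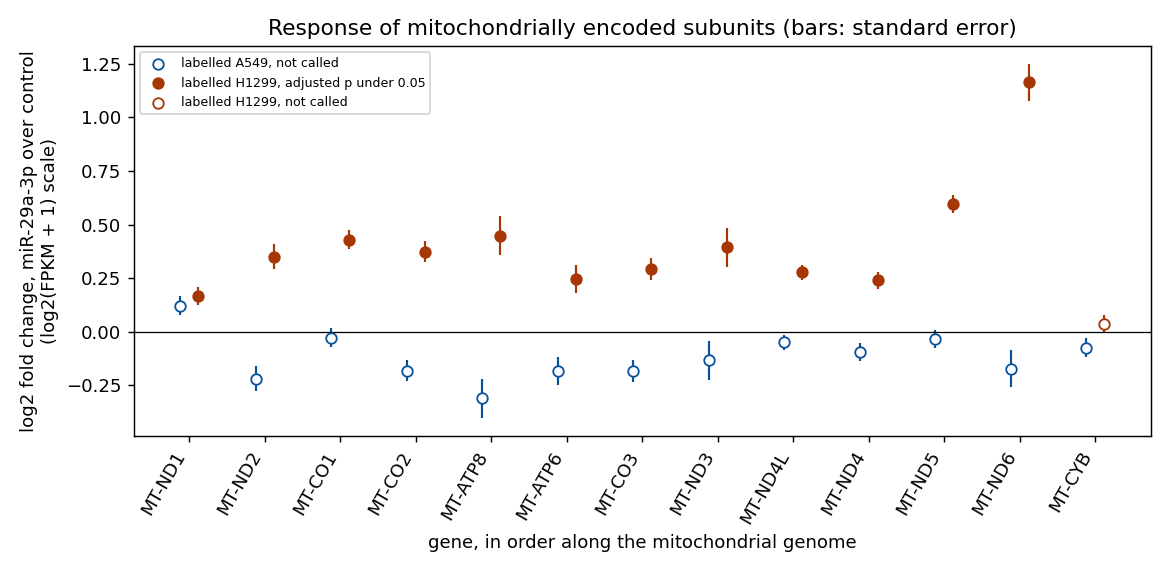
Log2 fold change of miR-29a-3p over control with its standard error (y, on the log2(FPKM + 1) scale) for the 13 mitochondrially encoded members (x, in genome order) in the libraries labelled A549 (blue) and H1299 (red); filled points have an adjusted p under 0.05. In the H1299-labelled libraries 12 points are filled and above 0, from 0.17 for MT-ND1 to 1.16 for MT-ND6, while no A549-labelled point is filled.

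Nuclear members of complex I moved in both directions in the libraries labelled H1299, 12 rising and 4 falling among 37. NDUFB3, an accessory subunit of the membrane arm, rose most, from 12.7 and 11.7 FPKM to 27.1 and 26.1, a log2 fold change of 1.06 ± 0.057 (SE) and an adjusted p of 3.9e-05. NDUFV2, an iron-sulfur core subunit of the NADH-binding module, went from 7.84 and 7.34 FPKM to 14.2 and 14.7, a log2 fold change of 0.85 ± 0.087 (SE) and an adjusted p of 0.0004. In both genes the treated libraries stood clear of the controls; those of NDUFB3 lay above, and those of NDUFV2 below, every A549-labelled library. NDUFA2, an accessory subunit of the matrix arm, went from 9.17 and 8.53 FPKM to 16.2 and 15.3, a log2 fold change of 0.76. NDUFA1 and NDUFB1, small accessory subunits of the membrane arm, stood at 82.8 and 62.6 and at 6.61 and 4.78 FPKM in the controls and at 118 and 132 and at 8.57 and 10.5 in the treated libraries, log2 fold changes of 0.78 and 0.66. Without treated library 2 the adjusted p of NDUFB1 was 0.0502. NDUFS3, a core subunit of the matrix arm, rose by 0.61, from 3.62 and 3.07 FPKM to 5.7 and 5.57. The other 6 that rose were accessory subunits but for NDUFV1, the core subunit that binds NADH: NDUFA13 by 0.48 (adjusted p = 0.0499), NDUFS5 by 0.42, NDUFA3 by 0.39, NDUFB2 by 0.38, NDUFB6 by 0.28 and NDUFV1 by 0.22. Single libraries ended 5 of these calls: NDUFA13 without any 1 library other than H1299-labelled control 1 (adjusted p = 0.072 to 0.15), NDUFA3 without H1299-labelled control 2 (0.083), H1299-labelled treated library 1 (0.084) or H1299-labelled treated library 2 (0.0505), NDUFB2 without H1299-labelled control 2 (0.090), H1299-labelled treated library 1 (0.070) or H1299-labelled treated library 2 (0.064), NDUFB6 without H1299-labelled control 2 (0.056) or H1299-labelled treated library 2 (0.060) and NDUFV1 without H1299-labelled control 1 (0.099), H1299-labelled control 2 (0.060) or H1299-labelled treated library 1 (0.11). Under other processing the call was lost for NDUFA13 under 7 alternatives (adjusted p = 0.051 to 0.12); and NDUFV1 with TPM scaling (0.12) or with scaling to nuclear genes (0.0506).

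Of the complex I members that fell, NDUFS4, an accessory subunit that joins late in assembly of the matrix arm, went from 21.9 and 18.3 FPKM to 12.5 and 13, a log2 fold change of -0.62 ± 0.11 (SE) and an adjusted p of 0.0036. Its treated libraries lay below the H1299-labelled controls but above every A549-labelled library. NDUFB9, an accessory subunit of the membrane arm, went from 17.8 and 18.7 FPKM to 12.8 and 13.2, a log2 fold change of -0.46. NDUFA12 and NDUFA11, both accessory subunits, had log2 fold changes of -0.37 (adjusted p = 0.040) and -0.20 (adjusted p = 0.029). NDUFA12 was lost without any 1 of the 4 H1299-labelled libraries (adjusted p = 0.070 to 0.17), and NDUFA11 without either control (0.11 and 0.080) or treated library 2 (0.14). Among the processing alternatives, calls were lost for NDUFA12 without the filter on low values (0.091) or with median-ratio scaling (0.0536); and NDUFA11 with median-ratio scaling (0.090) or with the line fitted alone (0.060). Summed over complex I, the nuclear members went from 692 and 633 FPKM to 817 and 811 and the mitochondrial members from 13228 and 13012 to 16487 and 15818.

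Complex II, succinate dehydrogenase, has no mitochondrially encoded subunit, and its members diverged. SDHB, the iron-sulfur subunit, fell from 22.3 and 23 FPKM to 17.6 and 17.6, a log2 fold change of -0.35 ± 0.0531 (SE) and an adjusted p of 0.0021. SDHC, a membrane anchor, rose from 7.04 and 6.86 FPKM to 9.17 and 7.92, a log2 fold change of 0.26 ± 0.085 (SE) and an adjusted p of 0.042. SDHA, the flavoprotein that oxidises succinate, stood at 10.6 and 10.7 and 13.5 and 12.1 FPKM (log2 fold change 0.24, adjusted p = 0.0505), and SDHD, the other anchor, at 8.81 and 7.87 and 8.5 and 8.93 (0.06, adjusted p = 0.61). The SDHC call was lost without control library 1 (0.11), control library 2 (0.14) or treated library 1 (0.20) of this line, and at 0.065 without either A549-labelled control. By setting, the call was lost for SDHC without the filter on low values (0.082), with TPM scaling (0.13), with scaling to nuclear genes (0.068) or with the line fitted alone (0.057). SDHA was called at 0.0468 and 0.0467 without either A549-labelled treated library, and with the fragments of their pseudogenes added its log2 fold change was 0.11 (adjusted p = 0.17) and that of SDHD 0.24 (adjusted p = 0.044). The summed level of the complex hardly moved, from 48.8 and 48.5 FPKM to 48.8 and 46.6, and the 2 groups overlapped.

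Complex III, which passes electrons from ubiquinol to cytochrome c, also split. UQCRFS1, the Rieske iron-sulfur protein, fell from 64.6 and 63.4 FPKM to 45.5 and 47.5, a log2 fold change of -0.45 ± 0.038 (SE) and an adjusted p of 0.00019. UQCRC1, a core subunit on the matrix side, fell from 41.7 and 42.2 FPKM to 31.3 and 32.5, a log2 fold change of -0.38. UQCRC2, the other core subunit, stood at 20.5 and 20.9 and 20.9 and 22 FPKM, a log2 fold change of 0.04 ± 0.0461 (SE) and an adjusted p of 0.47. The small subunits UQCRB, UQCRQ and UQCR11 rose by 0.57, 0.50 and 0.36. UQCRB, which binds ubiquinone, went from 8.67 and 10.2 FPKM to 15.5 and 13.3, and its call was lost without control library 1 (adjusted p = 0.0516) or treated library 1 (0.0526). UQCR11 was lost without H1299-labelled control 2 (0.086), H1299-labelled treated library 1 (0.064) or H1299-labelled treated library 2 (0.12). Under other processing the call was lost for UQCR11 without the filter on low values (0.065), with TPM scaling (0.058) or with the line fitted alone (0.059). The remaining members, UQCRH and UQCR10, were not called (0.00 and 0.27). The nuclear sum of complex III overlapped between the groups, 259 and 241 FPKM in the controls and 254 and 248 in the treated libraries, as did its mitochondrial subunit MT-CYB.

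Complex IV, cytochrome c oxidase, was the complex in which calls from both genomes ran one way: its 3 mitochondrial members and 5 of its 10 nuclear members rose and none fell. COX8A, its most abundant nuclear message, went from 379 and 355 FPKM to 431 and 443, a log2 fold change of 0.25 ± 0.041 (SE) and an adjusted p of 0.0028. COX6C and COX7A2, both small membrane subunits, went from 17.7 and 14.7 and from 13.9 and 12.3 FPKM to 22.2 and 22.4 and to 17.7 and 18.6, log2 fold changes of 0.44 in each. COX7B and COX6B1, both small subunits, rose by 0.35 and 0.21; COX7B was lost without H1299-labelled control 2 (0.077), H1299-labelled treated library 1 (0.068) or H1299-labelled treated library 2 (0.0507), and COX6B1 without H1299-labelled control 2 (0.073), H1299-labelled treated library 1 (0.086) or H1299-labelled treated library 2 (0.10). Among the processing alternatives, calls were lost for COX6B1 without the filter on low values (0.062), with TPM scaling (0.092) or with the line fitted alone (0.067). The other nuclear members were not called. Of these, COX7C was at 0.52 (adjusted p = 0.087), COX5B at 0.23 (0.057) and COX4I1 at 0.22 (0.12). COX5A, on the matrix side, and COX6A1 were at -0.02 and 0.03. The nuclear sum went from 816 and 752 FPKM to 911 and 914 and the mitochondrial sum from 18395 and 17938 to 24117 and 23255.

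**Figure D4:**
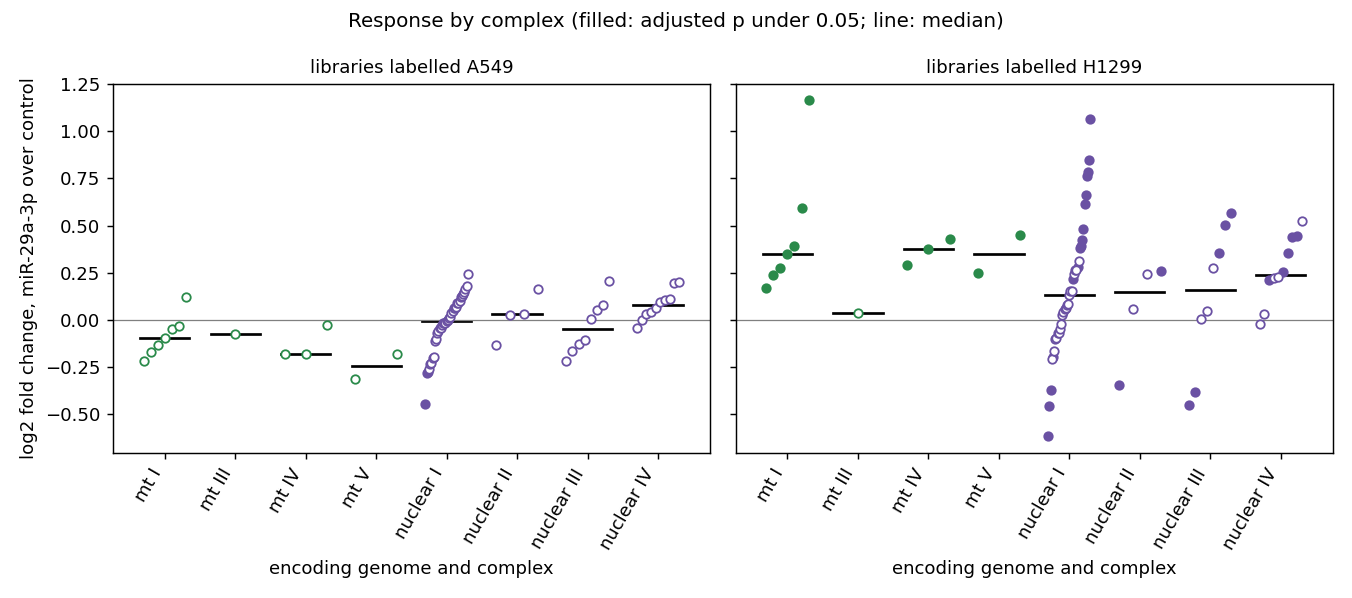
Log2 fold change of miR-29a-3p over control (y) of each member by encoding genome and complex (x), in the libraries labelled A549 (left) and H1299 (right), with filled points for an adjusted p under 0.05 and lines for medians. On the right the nuclear members of complexes I to III hold filled points on both sides of 0, whereas the filled points of complex IV lie above 0 only; on the left 3 nuclear complex I members are filled, all below 0.

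In the libraries labelled A549, the response of the same genes was small and none of the 13 mitochondrial members was called by limma, with 6 at an unadjusted p under 0.05. Of the 59 nuclear members, 3 fell and none rose, while 16.0% of all genes tested were called (7.30% higher, 8.66% lower). The median log2 fold change was -0.13 over the mitochondrial and 0.02 over the nuclear members, beside 0.00 over all genes tested. Both treated libraries lay below both controls for 11 of the 13 mitochondrial members, as for 29.2% of all genes tested, and above for 1, as for 29.8%. MT-ATP8 showed the lowest fold change, from 1797 and 1786 FPKM to 1320.3 and 1577, a log2 fold change of -0.31 ± 0.090 (SE) and an adjusted p of 0.065. MT-ND2, MT-CO2 and MT-CO3 stood at -0.22, -0.18 and -0.18, with adjusted p from 0.0512 to 0.058. These 4 were called lower when only genes with a mean of at least 5 FPKM were tested. MT-ATP8 was also called without A549-labelled treated library 2 (0.032). MT-ND1 was the 1 member with both treated libraries above both controls, 1413 and 1434 against 1300.2 and 1318 FPKM, a log2 fold change of 0.12 ± 0.044 (SE) and an adjusted p of 0.12.

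The 3 nuclear members that fell in the A549-labelled libraries all belong to complex I. NDUFS5, an accessory subunit facing the intermembrane space, fell from 280.2 and 272 FPKM to 208 and 198, a log2 fold change of -0.45 ± 0.054 (SE) and an adjusted p of 0.0042. Its call held with each library left out in turn, and the other 2 did not: without A549-labelled control 1 or control 2 it was the 1 nuclear member called. NDUFC2 went from 14.8 and 14.4 FPKM to 12.7 and 11 (log2 fold change -0.28, adjusted p = 0.0463) and NDUFB6 from 8.8 and 9.03 to 6.83 and 7.55 (-0.28, adjusted p = 0.031); both are accessory subunits of the membrane arm. NDUFC2 was lost without any 1 of the 8 libraries other than A549-labelled treated library 1 (adjusted p = 0.072 to 0.15). NDUFB6 was lost without either A549-labelled control (0.091 and 0.13), A549-labelled treated library 1 (0.12) or either H1299-labelled control (0.0523 and 0.0522). By setting, the NDUFC2 call was lost under 8 alternatives (adjusted p = 0.0509 to 0.11), and also with the replicate number as a block. The NDUFB6 call was lost without the filter on low values (0.0538) or with the line fitted alone (0.081). Complex II was flat, with log2 fold changes of -0.13 for SDHA, 0.03 for SDHB, 0.03 for SDHC and 0.16 for SDHD, none called. The nuclear sum of complex I stood at 1066 and 1067 FPKM in the controls and 1019 and 991 in the treated libraries, and that of complex IV at 1162 and 1149 and 1223 and 1237.

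The responses of the lines were compared directly by the difference of their log2 fold changes, A549-labelled minus H1299-labelled. It was below 0 and called for 11 of the 13 mitochondrial members, with a median of -0.48, and the exceptions were MT-ND1 (-0.05, adjusted p = 0.59) and MT-CYB (-0.11, adjusted p = 0.20). Without the filter on low values 7 were called, and MT-CO1 (0.065), MT-ND3 (0.060), MT-ND4 (0.071) and MT-ND4L (0.086) were lost. Of the nuclear members 15 were called below 0 and 5 above, with a median of -0.16. With TPM scaling 8 were below and 7 above, and with median-ratio scaling 18 below and 3 above. Of all genes tested 37.3% were called, 18.1% above and 19.2% below 0, with a median of 0.00. MT-ND6 had the lowest value, -1.34 ± 0.12 (SE), and NDUFB3 the lowest of the nuclear members, -1.18 ± 0.081 (SE). NDUFS5 fell in the A549-labelled libraries and rose in the H1299-labelled ones, from 139.6 and 127 FPKM to 180.3 and 178 (0.42, adjusted p = 0.0010), a difference of -0.87 (adjusted p = 0.00048). NDUFB6 did the same, with a rise of 0.28 (adjusted p = 0.010) in the H1299-labelled libraries and a difference of -0.55 (adjusted p = 0.0040). UQCRB and NDUFS3 had differences of -0.79 and -0.67. The 5 above 0 were NDUFS4 (0.51), NDUFB9 (0.44), SDHB (0.38), UQCRFS1 (0.35) and NDUFA11 (0.26), each of which had fallen in the H1299-labelled libraries. Of these 5, single libraries ended the calls of NDUFS4 without any 1 library other than A549-labelled control 2 or H1299-labelled control 2 (adjusted p = 0.060 to 0.11), NDUFB9 without any 1 library other than A549-labelled treated library 2 (adjusted p = 0.060 to 0.11) and NDUFA11 without any 1 library other than H1299-labelled treated library 1 (adjusted p = 0.065 to 0.12). Under other processing the NDUFS4 call was lost without the filter on low values (0.085) or with the replicate number as a block. NDUFB9 was lost without the filter on low values (0.089), with median-ratio scaling (0.070), with scaling to nuclear genes (0.0531) or with that block. NDUFA11 was lost without that filter (0.068), with median-ratio scaling (0.10), with scaling to nuclear genes (0.064) or without a variance trend (0.060). Without the filter on low values 10 nuclear members were called in place of 20. This contrast uses the same control libraries as the single responses, so the values are not independent of them. Left out 1 at a time, A549-labelled control 1 gave 12 nuclear members called in place of 20, A549-labelled control 2 and H1299-labelled treated library 2 gave 11 each, and A549-labelled treated library 2 and H1299-labelled treated library 1 gave 13 each. The MT-ND3 call was lost without A549-labelled control 2 (0.063), A549-labelled treated library 1 (0.061) or H1299-labelled treated library 1 (0.061).

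Between the control-transfected libraries of the lines, the 2 genomes stood apart in direction. In the H1299-labelled controls 11 of the 13 mitochondrial members were higher than in the A549-labelled controls and 1 was lower, while 39 of the 59 nuclear members were lower and 6 higher. Of all genes tested 74.8% were called, 29.8% higher and 45.0% lower. The median of all genes was itself at -0.17, and it moved to -0.017 with libraries rescaled by median ratio and to -0.31 with TPM. Both H1299-labelled controls lay above both A549-labelled controls for 12 mitochondrial and 7 nuclear members, beside 35.4% of all genes tested, and below for 1 and 45, beside 51.8%. Relative to the median of all genes, the median mitochondrial member stood 0.52 above and the median nuclear member at -0.32. Under median-ratio scaling 12 mitochondrial members were higher and 1 lower, and 9 nuclear members higher and 32 lower. With TPM scaling 9 mitochondrial members were higher and 1 lower, and 4 nuclear members higher and 43 lower.

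MT-CO1 and MT-ND1 stood furthest above the A549-labelled controls among the mitochondrial members, with log2 fold changes of 0.86 and 0.81. MT-ND1 stood at 1300.2 and 1318 FPKM in the A549-labelled and 2264 and 2312 in the H1299-labelled controls. MT-ND3 was at 0.78, MT-ATP8 at 0.48, MT-ND4L at 0.44, MT-ND4 at 0.43, MT-CO3 at 0.34, MT-ND2 at 0.29 and MT-CYB at 0.23. MT-ATP6 and MT-CO2 had the smallest called differences, 0.17 (adjusted p = 0.0484) and 0.15 (adjusted p = 0.027). Both were lost without A549-labelled control 1 (0.17 and 0.16) or H1299-labelled control 1 (0.22 and 0.098), and MT-ATP6 also without A549-labelled control 2 (0.098) or either H1299-labelled treated library (0.074 for both). Among the processing alternatives, calls were lost for MT-ATP6 with a pseudocount of 0.1 (0.0522), without the filter on low values (0.11), with TPM scaling (0.33) or without a variance trend (0.077); and MT-CO2 without the filter on low values (0.25), with TPM scaling (0.38) or without a variance trend (0.060). With the fragments of their pseudogenes added MT-ATP6 was at 0.89 and MT-ND2 at 0.45. The last 2 coding genes before MT-CYB behaved otherwise. MT-ND6 was lower in the H1299-labelled controls, 115 and 96.7 against 203 and 219.8 FPKM, a log2 fold change of -1.0 ± 0.087 (SE) and an adjusted p of 6.2e-05. MT-ND5 stood at 869.6 and 868 and 873 and 898 FPKM, a log2 fold change of 0.03 ± 0.042 (SE) and an adjusted p of 0.58, and was called higher with libraries rescaled by median ratio (0.0052). These were also the members with the largest rises after miR-29a-3p in the H1299-labelled libraries, a comparison that shares the same controls. After the treatment MT-ND6 stood at 245 and 231 FPKM there, beside 188 and 187 in the A549-labelled treated libraries.

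**Figure D5:**
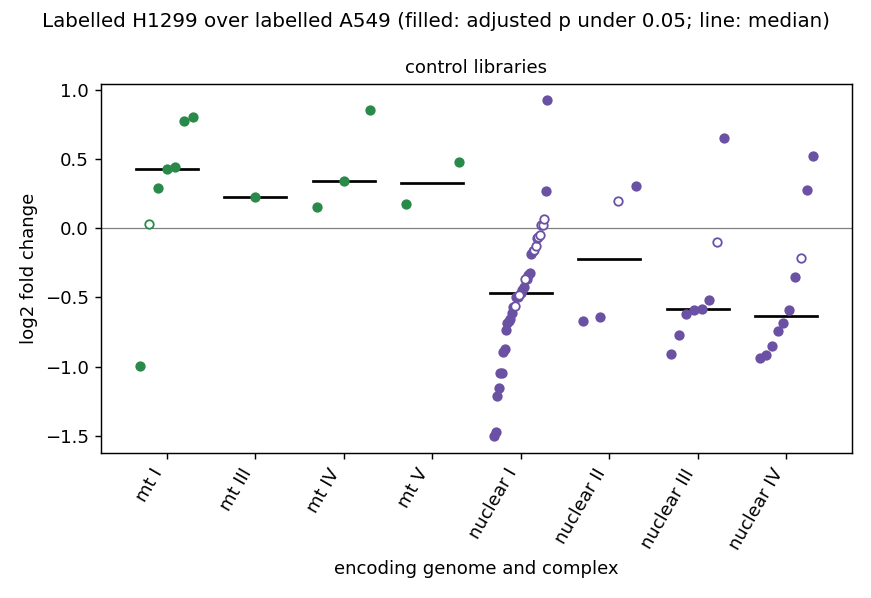
Log2 fold change between control libraries, labelled H1299 over labelled A549 (y, on the log2(FPKM + 1) scale), of each member by encoding genome and complex (x), with filled points for an adjusted p under 0.05 and lines for medians. Mitochondrially encoded members lie mostly above 0 except MT-ND6 at -1.0, and nuclear members mostly below 0, with medians under 0 in each complex.

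Among nuclear members, subunits of complex I gave the 5 lowest values between the lines, 4 of them accessory subunits and 1, NDUFS3, a core subunit. NDUFA13, also known as GRIM-19, stood at 26.5 and 26.6 FPKM in the A549-labelled and 10.8 and 7.03 in the H1299-labelled controls, a log2 fold change of -1.5 ± 0.17 (SE) and an adjusted p of 0.0002. NDUFB1 (-1.47), NDUFB7 (-1.21), NDUFS3 (-1.16) and NDUFS5 (-1.05) followed. NDUFB7, on the intermembrane-space side, went from 167 and 148 FPKM to 65.9 and 68.5, and it was among the members with no call in either response (0.09 and 0.08). The 6 that were higher in the H1299-labelled controls were NDUFS4 (0.92), UQCRC2 (0.65), COX5A (0.52), SDHC (0.30), COX6A1 (0.27) and NDUFA3 (0.27). UQCRC2 stood at 12.6 and 13 FPKM and 20.5 and 20.9, a log2 fold change of 0.65 ± 0.0461 (SE) and an adjusted p of 2.2e-05, whereas UQCRC1, its partner in the core, stood at 45 and 45.2 and 41.7 and 42.2 (-0.10, adjusted p = 0.27). Within complex II, SDHB and SDHD were lower (-0.67 and -0.64), SDHC was higher, and SDHA was not called (0.19, adjusted p = 0.073), or with pseudogene fragments added was higher (0.17, adjusted p = 0.031). NDUFA3 was lost without any 1 library other than A549-labelled control 1 or H1299-labelled control 2 (adjusted p = 0.065 to 0.23). SDHC was lost without A549-labelled control 1 (0.067) or H1299-labelled control 1 (0.068). By setting, the call was lost for NDUFA3 without the filter on low values (0.086), with TPM scaling (0.15), with scaling to nuclear genes (0.059) or with pseudogene fragments added (0.14); and SDHC with TPM scaling (0.059).

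MicroRNAs of the miR-29 family pair through bases 2 to 8, the seed, with sites in the 3′ untranslated region (UTR) of a message. The mature sequence is given because the same seed defines every site counted here. It is credited to RefSeq (GRCh38.p14, chr7:130876748-130876769, minus strand), with the seed in capitals.

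hsa-miR-29a-3p: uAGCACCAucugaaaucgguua

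Of the 59 nuclear members 6 (10.17%) held a full seed match TGGTGCT in their longest annotated 3′ UTR, beside 16.4% of the 11632 tested genes with a UTR. The members' UTRs were shorter, with a median of 489 bases against 1356. The 6 were COX7C, NDUFA10, NDUFA4, NDUFS1, NDUFS6 and UQCR11, of which NDUFS1 held 2 sites. The sites of UQCR11 (chr19:1598201-1598207, minus strand) and NDUFA4 (chr7:10933050-10933056, minus strand) are shown on GRCh38 because they are the only ones with the additional A that makes an 8mer, with the match in capitals.

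UQCR11: tgctctggtgcctggTGGTGCTAgctcctc
NDUFA4: tatcagtgctaaccaTGGTGCTAgtagtca

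None of the 6 was called lower in either line. UQCR11, a small subunit of complex III, stood at 25.8 and 20.8 FPKM in the H1299-labelled controls and 29 and 30.8 in the treated libraries, a rise of 0.36 (adjusted p = 0.027). The log2 fold changes of the other 5 in the H1299-labelled libraries ran from -0.07 for NDUFS1 to 0.52 for COX7C, and in the A549-labelled libraries from -0.23 for NDUFS6 to 0.15 for NDUFA4. Of the members that fell in either line, none held such a site in the UTR searched. In the 13 mitochondrial genes the same 7 bases occurred once, in MT-ND6.

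Promoters were searched on both strands for 3 motifs, from 250 bases before to 50 after the start, in the 50 nuclear members that RefSeq's table (GRCh38.p14) matched. AAGATGGCG, the YY1 motif, was found in 7 (14%) against 1.85% of all 27305 promoters and 4.14% of those of tested genes. CCGGAAG, the core of ETS sites that GABP binds, was found in 15 (30.0%) against 10.67% and 19.94%, and the NRF1 palindrome in 3 (6.0%) against 1.36% and 2.36%. Of the 7 members with the YY1 motif, 3 fell and none rose in the H1299-labelled libraries, with a median log2 fold change of -0.21 and a range of -0.62 to -0.07. Of the 15 with the ETS motif 7 rose and 1 fell (median 0.22), the 3 with the NRF1 motif were not called, and of the 27 with none of these 10 rose and 3 fell (median 0.22), beside 25.1% and 24.8% of all genes tested. SDHB holds an ETS and a YY1 motif and SDHD an NRF1 and an ETS motif, and each counts in both. The promoters of the 3 that fell are shown, chosen after their values were seen, with the YY1 motif and in SDHB the ETS motif in capitals: NDUFS4 at chr5:53560389-53560688 (plus strand), UQCRC1 at chr3:48609597-48609896 (minus strand) and SDHB at chr1:17053983-17054282 (minus strand). NDUFS3 at chr11:47578824-47579123 (plus strand), which rose, is shown beside them with its 2 ETS motifs, 1 on each strand.

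NDUFS4: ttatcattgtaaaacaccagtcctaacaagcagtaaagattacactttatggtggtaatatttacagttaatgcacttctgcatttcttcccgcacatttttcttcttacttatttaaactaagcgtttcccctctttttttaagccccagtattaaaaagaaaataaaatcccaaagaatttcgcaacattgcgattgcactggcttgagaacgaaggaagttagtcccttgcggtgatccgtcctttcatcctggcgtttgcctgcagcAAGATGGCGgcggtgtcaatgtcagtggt
UQCRC1: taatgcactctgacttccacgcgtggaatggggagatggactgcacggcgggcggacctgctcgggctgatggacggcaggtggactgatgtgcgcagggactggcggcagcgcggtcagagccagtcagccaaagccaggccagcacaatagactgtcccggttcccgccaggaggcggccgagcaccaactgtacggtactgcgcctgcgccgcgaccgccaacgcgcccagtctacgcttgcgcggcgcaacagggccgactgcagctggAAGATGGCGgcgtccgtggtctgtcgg
SDHB: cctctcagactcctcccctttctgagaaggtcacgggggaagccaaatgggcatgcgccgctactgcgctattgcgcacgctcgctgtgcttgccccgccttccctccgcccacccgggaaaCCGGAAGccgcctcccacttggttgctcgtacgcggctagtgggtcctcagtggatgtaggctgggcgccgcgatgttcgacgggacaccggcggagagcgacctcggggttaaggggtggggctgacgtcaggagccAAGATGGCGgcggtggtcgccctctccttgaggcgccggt
NDUFS3: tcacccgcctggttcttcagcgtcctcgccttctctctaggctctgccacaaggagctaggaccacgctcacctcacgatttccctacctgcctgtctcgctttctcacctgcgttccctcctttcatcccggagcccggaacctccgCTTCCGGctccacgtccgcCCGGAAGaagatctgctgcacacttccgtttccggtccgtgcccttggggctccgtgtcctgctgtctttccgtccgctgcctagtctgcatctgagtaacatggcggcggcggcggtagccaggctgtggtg

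In the first 3 the YY1 motif begins 21, 23 and 10 bases after the start. YY1 itself stood at 11.1 and 8.66 FPKM in the H1299-labelled controls and 6.15 and 6.22 in the treated libraries (-0.59, adjusted p = 0.0041). The other members with this motif, NDUFA6, NDUFA7, NDUFA9 and NDUFS7, were not called there. YY1 was also lower in the H1299-labelled than in the A549-labelled controls (-0.93). In that comparison 4 of the 7 members with its motif were lower and 1, NDUFS4, was higher (median -0.67). Of the 15 with the ETS motif, 12 were lower and 1 higher (median -0.64). A motif match is a description of these letters, binding was not measured, and a part of YY1 was not tested.

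Genes that build, express or regulate the chain gave a mixed picture in the H1299-labelled libraries, where 25.1% of all genes tested rose and 24.8% fell. Of the 18 nuclear ATP synthase genes 8 rose, among them ATP5MD by 0.56 and ATP5F1E by 0.47. The 2 that fell were ATP5F1C (-0.43) and ATP5F1B (-0.16). ATP5F1C and ATP5F1B also fell in the A549-labelled libraries (-0.36 and -0.33), where 1 gene of this list rose and 4 fell, beside 7.30% and 8.66% of all genes tested. ATP5F1B was lost in the H1299-labelled libraries without H1299-labelled control 1 (0.11), H1299-labelled treated library 1 (0.091) or H1299-labelled treated library 2 (0.11). Under other processing the call was lost for ATP5F1B with median-ratio scaling (0.12), with the line fitted alone (0.070) or without a variance trend (0.061). Of 47 tested assembly factors 9 rose and 13 fell, with COX16 at 0.77, COX15 (haem A synthesis) at 0.76, COA7 at -0.93 and TMEM126A at -0.68. Of 31 genes for mitochondrial DNA expression 7 rose and 6 fell, among them TFB2M, a factor that starts mitochondrial transcription, from 20.5 and 21.4 FPKM to 14.5 and 15 (-0.48), and TWNK, the mitochondrial DNA helicase, from 14.6 and 15.7 to 8.44 and 6.15 (-0.98). POLRMT, the mitochondrial RNA polymerase, and TFAM were not called (0.09 and 0.24). Mitochondrial ribosomal protein genes were nearly balanced, 14 rising and 13 falling among 78. Of 7 tested regulators of the chain 4 fell and none rose: YY1, GABPB1 (-0.43), PPRC1 (-0.40) and NRF1 (-0.39). Of 10 genes that track mitochondrial content 3 rose and 2 fell, with IMMT at 0.51 and HSPA9 at -0.68, and CS, the citrate synthase gene, was not called (-0.10). The medians of these lists ran from -0.39 for the regulators to 0.17 for the ATP synthase genes.

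The 2 ribosomal RNAs of the mitochondrial genome were higher, as most of its messages were, in the H1299-labelled controls and after miR-29a-3p in the H1299-labelled libraries. MT-RNR1 stood at 415 and 432 FPKM in the A549-labelled and 1162 and 1130.5 in the H1299-labelled controls (1.43) and rose to 1558 and 1544 in the H1299-labelled treated libraries (0.44). MT-RNR2 was at 1.73 between the lines and rose by 0.34. MT-RNR1 also rose in the A549-labelled libraries, to 492 and 476 FPKM (0.19, adjusted p = 0.022). There, none of the 13 mitochondrial members was called, and 11 of them lay lower in both treated libraries than in both controls. The MT-RNR1 call was lost without either A549-labelled control or either A549-labelled treated library. By setting, the A549-labelled call was lost for MT-RNR1 without the filter on low values (0.085), with the line fitted alone (0.057) or without a variance trend (0.060). MT-RNR2 also lay higher in both A549-labelled treated libraries and was not called. Between the lines, the nuclear lists differed: 16 of the 18 ATP synthase genes were lower in the H1299-labelled controls and 1 higher (median -0.75), and 42 of the 78 mitochondrial ribosomal protein genes lower and 11 higher (median -0.43), beside 45.0% of all genes tested lower and 29.8% higher. Medians of the assembly factors (-0.11), mitochondrial DNA expression genes (-0.13), genes that track mitochondrial content (-0.16) and regulators (0.03) lay above the -0.17 of all genes tested. COX7B2, an isoform outside the members, was listed at 10.1 and 8.88 FPKM in the A549-labelled controls and at 0.0405 and 0.0517 in the H1299-labelled ones.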

How the data were processed

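RNA-seq was made from total RNA of 8 libraries, 2 in each of 4 groups. Values are FPKM as deposited by the authors, per the file headers. StringTie and GRCh38 are named per the submitters' processing notes; versions, aligner and strand setting: not given in the sources used here. Genes were matched by identifier, 31105 of 31461 being in GENCODE 29. Depth was estimated from the steps between low FPKM values, of which 87.1% to 93.1% came out whole within 0.02 of a fragment; this did not cover nearly all values, so no count test was run.

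FPKM plus a pseudocount of 1 was put on the log2 scale. The 14635 genes that reached 1 FPKM in 2 or more of the 8 libraries were fitted with limma 3.58.1 in R 4.3.3, with 4 group means, a trended variance and 4 residual degrees of freedom. P-values were adjusted by Benjamini-Hochberg over all genes tested and called under 0.05. The test had been planned for either counts or FPKM. No label ties libraries to separate cultures; the p-values therefore reflect library-to-library spread, perhaps technical. The fit was tested on simulated data.

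The members and gene lists were chosen with earlier results of these data known. By rule the text names every mitochondrial member, the 4 SDH genes, in each comparison the 5 highest and 5 lowest called nuclear members with a group mean of at least 5 FPKM, up to 2 genes per direction of each other list, and members with a seed match. Other members and NRF1, PPRC1, POLRMT, TFAM, CS, CD68 and ALDH3A1 were chosen after their values were seen. Alternatives were a pseudocount of 0.1, no filter, a mean of at least 5 FPKM, scaling by median ratio, TPM or nuclear genes, each line alone, no variance trend, a replicate block and each library left out. Sequences came from RefSeq (GRCh38.p14) and GENCODE 29.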

Additional observations from a re-analysis of the deposited data

Results flagged for a closer look

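The response to miR-29a-3p differed between the lines for 31 members, by the test of the difference of the log2 fold changes itself (limma, A549-labelled minus H1299-labelled), which 37.3% of all genes tested pass. For the mitochondrial members it was -1.34 for MT-ND6, -0.76 for MT-ATP8, -0.63 for MT-ND5, -0.57 for MT-ND2 and -0.56 for MT-CO2. It was -0.53 for MT-ND3, -0.48 for MT-CO3, -0.46 for MT-CO1, -0.43 for MT-ATP6, -0.33 for MT-ND4 and -0.33 for MT-ND4L. For nuclear members below 0 it was -1.18 for NDUFB3, -0.87 for NDUFS5, -0.79 for UQCRB, -0.74 for NDUFA13, -0.67 for NDUFS3, -0.67 for NDUFV2, -0.65 for NDUFB1, -0.64 for NDUFA2, -0.62 for NDUFA1, -0.55 for NDUFB6, -0.50 for UQCRQ, -0.48 for COX7A2, -0.40 for COX6C, -0.37 for SDHA and -0.34 for NDUFC2. Above 0 it was 0.26 for NDUFA11, 0.35 for UQCRFS1, 0.38 for SDHB, 0.44 for NDUFB9 and 0.51 for NDUFS4. The members below 0 were higher after miR-29a-3p relative to controls in the H1299-labelled than in the A549-labelled libraries, and those above 0 were lower. With the fragments of its pseudogenes added, the difference of SDHA was -0.036 (adjusted p = 0.76). SDHA was also lost with a pseudocount of 0.1, TPM, scaling to nuclear genes, no variance trend, a replicate block or median-centred libraries. NDUFA1 was lost under each of these but the centring, and NDUFA13 under each but the centring and the block. TPM also ended the calls of NDUFB1, NDUFC2, COX6C and COX7A2. The replicate block ended those of NDUFB1, NDUFC2, COX6C, NDUFS4 and NDUFB9. Without the filter on low values 7 of the mitochondrial and 10 nuclear members were called. Several of these calls depend on single libraries. SDHA was lost without any 1 library other than A549-labelled control 1 or A549-labelled treated library 1 (adjusted p = 0.0501 to 0.13), NDUFC2 without any 1 library other than A549-labelled treated library 1 (adjusted p = 0.065 to 0.11), NDUFA1 without any 1 library other than H1299-labelled control 1 (adjusted p = 0.069 to 0.13) and NDUFA13 without any 1 library other than H1299-labelled control 1 or H1299-labelled control 2 (adjusted p = 0.080 to 0.13). NDUFB1 was lost without any 1 library other than H1299-labelled control 1 or H1299-labelled treated library 1 (adjusted p = 0.079 to 0.12), COX6C without any 1 library other than H1299-labelled control 1 or H1299-labelled control 2 (adjusted p = 0.067 to 0.10), COX7A2 without any 1 library other than A549-labelled treated library 2 or H1299-labelled control 1 (adjusted p = 0.0527 to 0.079), NDUFS4 without any 1 library other than A549-labelled control 2 or H1299-labelled control 2 (adjusted p = 0.060 to 0.11), NDUFB9 without any 1 library other than A549-labelled treated library 2 (adjusted p = 0.060 to 0.11) and NDUFA11 without any 1 library other than H1299-labelled treated library 1 (adjusted p = 0.065 to 0.12). MT-ND3 was lost without A549-labelled control 2 (0.063), A549-labelled treated library 1 (0.061) or H1299-labelled treated library 1 (0.061).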

How the results depend on the processing

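In the A549-labelled libraries 4 mitochondrial members were called when a mean of at least 5 FPKM was required, and 1 with median-ratio scaling, TPM, scaling to nuclear genes only, or pseudogene fragments added; 1 nuclear member was called without a filter on low values or with the line fitted alone. Without the 4 mitochondrial genes that overlap by 7 or 46 bases (MT-ATP8, MT-ATP6, MT-ND4L and MT-ND4) and MT-ND6, on the other strand, 7 mitochondrial members were called in the H1299-labelled response, 6 in the difference and 7 between the lines, of 8 left. Without a filter, 7 mitochondrial and 10 nuclear members were called in the difference. The median of the mitochondrial minus that of the nuclear members was -0.11 (A549-labelled response), 0.16 (H1299-labelled response) and 0.93 (between the lines) without members of high pseudogene level, and -0.12, -0.35 (difference) and 0.81 (lines) without these 5 genes. With pseudogene fragments added it was -0.35 for the difference and 0.94 between the lines. Between the lines it was 0.87 with a pseudocount of 0.1, TPM or scaling to nuclear genes only, and 0.86 with median ratios. The ratio of summed FPKM does not change with scaling by construction; as a ratio of medians it was 85.6 and 81.3 in the A549-labelled and 185 and 187 in the H1299-labelled controls and treated libraries.

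With each library left out in turn, 0 to 1 mitochondrial and 1 to 3 nuclear members were called in the A549-labelled response, 9 to 12 and 18 to 30 in the H1299-labelled response, 10 to 11 and 11 to 21 in the difference, and 10 to 12 and 40 to 45 between the lines. A lone library was assumed to vary like the other groups. The median differences ranged from -0.15 to -0.12, 0.14 to 0.20, -0.36 to -0.28 and 0.82 to 0.89 in that order, and the summed ratios from 9.81 to 10.26 and 9.20 to 9.29 (A549-labelled) and 20.1 to 21.3 and 22.2 to 23.0 (H1299-labelled). NDUFB10 was not called with all libraries in the fit. Both its sign and its call depended on which H1299-labelled control was left out. Over single libraries its log2 value ranged from -0.53 to 0.33 in the H1299-labelled response. The range was -0.37 to 0.49 in the difference and -0.59 to 0.27 between the lines. The cause was not tested. With the replicate number as a block 0 mitochondrial and 2 nuclear members were called in the A549-labelled response, 12 and 31 in the H1299-labelled response, 11 and 14 in the difference and 12 and 45 between the lines, with median differences of -0.15, 0.14, -0.32 and 0.84. Deviations of same-numbered libraries correlated at -0.037 to 0.063 over the genes tested. Values this low show no sign of pairing by number, but a shared effect that is small against the spread could be missed. The overlapping-gene, pseudogene and centring alternatives were added after the data were seen. Depth limits the nuclear members most, 28 of which had under 100 estimated fragments in a library.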

Other observations

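COX7A2L, which helps join complexes III and IV and lies outside the members, was among the genes that moved apart in the lines. It rose in the A549-labelled libraries from 7.67 and 7.84 FPKM to 9.51 and 9.26, a log2 fold change of 0.25 ± 0.0526 (SE) and an adjusted p of 0.027 (limma), a call lost without A549-labelled control 1 (0.10), A549-labelled control 2 (0.086), A549-labelled treated library 1 (0.11) or A549-labelled treated library 2 (0.077). In the H1299-labelled libraries it fell from 13.7 and 14.6 FPKM to 10.3 and 10.8, a log2 fold change of -0.40 ± 0.0526 (SE) and an adjusted p of 0.0012. TFB2M likewise rose from 10.3 and 10.6 FPKM to 12.2 and 12.9 in the A549-labelled libraries (0.24, adjusted p = 0.028), a call lost without A549-labelled control 1 (0.11), A549-labelled control 2 (0.081), A549-labelled treated library 1 (0.057) or A549-labelled treated library 2 (0.11). Among the alternatives, these A549-labelled calls were also lost for COX7A2L with scaling to nuclear genes (0.058) or with the line fitted alone (0.068); and TFB2M with TPM scaling (0.0542), with scaling to nuclear genes (0.064) or with the line fitted alone (0.078). The difference of the responses was 0.64 (adjusted p = 0.0012) for COX7A2L and 0.72 (adjusted p = 0.00081) for TFB2M.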
